A study of Mus musculus with 3 samples.

Results

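The genes that write, copy and read DNA methylation were followed in mouse four-cell embryos whose oocytes had been exposed to high hydrostatic pressure (HP). They were the 10 genes Dnmt1, Uhrf1, Uhrf2, Dmap1, Dnmt3a, Dnmt3b, Dnmt3l, Mbd1, Mbd2 and Mbd3, found by their gene names among the 27962 names of the array design, and they had 19 of its 41174 probes. Oocytes of the HP group were held at 20 MPa for 60 min at 37 °C, and control oocytes were kept alike without pressure. Both groups were then fertilised and cultured to the four-cell stage, by ICSI (injection of sperm) in the sample labels while the title of the series says in vitro, and the labels used here name no mouse strain or age. Each of 3 two-colour Agilent arrays carried 1 pool of HP embryos in Cy5 (44, 30 and 37 embryos in replicates 1, 2 and 3) and 1 pool of control embryos in Cy3 (36, 33 and 24 embryos).

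In mammals methyl groups sit mainly on cytosines of CpG dinucleotides. Dnmt3a and Dnmt3b place them on unmethylated DNA, with the catalytically inactive Dnmt3l as their cofactor in germ cells. After each round of replication Uhrf1 binds the hemimethylated CpG and brings in Dnmt1, which copies the mark to the new strand. Uhrf2 is a paralog of Uhrf1, and Dmap1 is a protein that binds Dnmt1 and also belongs to histone acetyltransferase and chromatin remodelling complexes. The Mbd proteins share a methyl-CpG binding domain and recruit repressors. In the mouse the genome loses much of its methylation through cleavage, while an oocyte form of Dnmt1 keeps the marks of imprinted genes.

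Ratios below are HP over control on the log2 scale, from background-corrected and loess-normalised signals, and a level is the normalised log2 signal of 1 pool. Levels are set against each other within a probe only. Pressure and dye ran the same way on every array, so their effects cannot be told apart. Amplified RNA of whole pools was measured, from 240 pg of total RNA each, so the ratios do not show cell number or total RNA per cell. For a given transcript, fewer cells that hold it and less of it per cell cannot be told apart either. Precision is limited by there being 3 arrays. The p-values rest on the spread of 3 pairs of pools, moderated over all tested genes or probes. Across the arrays 17.5% to 19.9% of the spots were well above background, by the call of the scanner software, in the HP channel and 18.5% to 23.2% in the control channel. The HP pools of replicates 2 and 3 lay closer together than the other pairs of HP or control pools, with an SD over genes of their difference of 0.231 against 0.463 to 0.548. Of 12 embryo and oocyte markers 9 were measured, with a median ratio of 0.018, and 3 had an unadjusted p under 0.05, beside 18.5% of all tested genes. These were Khdc3 at −1.30, Gdf9 at 0.97 and Btg4 at 0.68, or −2.06, 0.12 and −0.0049 with median centring. None passed a limma adjusted p of 0.05. Their part in the results below was not tested. Of the other markers Nlrp5 and Zar1 had no reading well above background and Pou5f1 was so in 1 reading. Of 11 cumulus and granulosa markers none met the detection rule for testing. Of 8 sperm and spermatid markers Prm1 and Ldhc met it, with ratios of −0.044 and −0.0048.

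Uhrf1 had the largest mean ratio of the tested members, and it is measured by a pair of probes that do not give the same answer. Their positions in the array design (mouse mm7) are chr17:54481483-54481542 for A_52_P314705 and chr17:54481380-54481439 for A_51_P491742, 43 bases apart on the same strand. The first 30 of the 60 bases of each are shown because the result turns on which of them is read. The probes of Dnmt1 and Dmap1 are shown whole. On the minus strand of mm7 they reach over 369 bases (chr9:20784085-20784453) and 286 bases (chr4:117051228-117051513), more than the 60 bases of the oligo, so each is split by an intron. For Uhrf2 (chr19:29756122-29756181) and Dnmt3l (chr10:77717971-77718030) the first 30 bases are given. All are written 5′ to 3′ as the array design gives them, in lower case throughout.
Uhrf1 A_52_P314705: gcgagataaatgggtttcctcgatgaattt
Uhrf1 A_51_P491742: catggaaggcagagatgtgttatcagttcc
Dnmt1 A_51_P195573: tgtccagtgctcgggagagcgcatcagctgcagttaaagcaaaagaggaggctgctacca
Dmap1 A_51_P233788: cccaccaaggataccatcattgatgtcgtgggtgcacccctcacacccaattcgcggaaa
Uhrf2 A_52_P220485: ggtttgaagcacatatacatagtgttacta
Dnmt3l A_51_P496720: atgaaagtctttcctagaaccagggcagat

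The first question was which members could be measured at all. Testing required a signal well above background on 2 or more of the 3 arrays in one and the same channel, and 20.9% of all probes met this. Of the 19 member probes 7 met the rule, and they covered 6 of the 10 genes. All 4 maintenance genes were among them, by 5 of 8 probes. Of the de novo group Dnmt3l alone was tested, by 1 of 5 probes of the group, and of the readers Mbd1 alone, by 1 of 6 probes. Counted over single readings, 12 of 24 HP readings and 13 of 24 control readings of the maintenance probes were well above background. The de novo probes had 4 of 15 in each channel, and the reader probes 3 of 18 in HP and 4 of 18 in control. Over all probes of the array the share was 18.7% in HP and 20.5% in control.

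**Figure D1:**
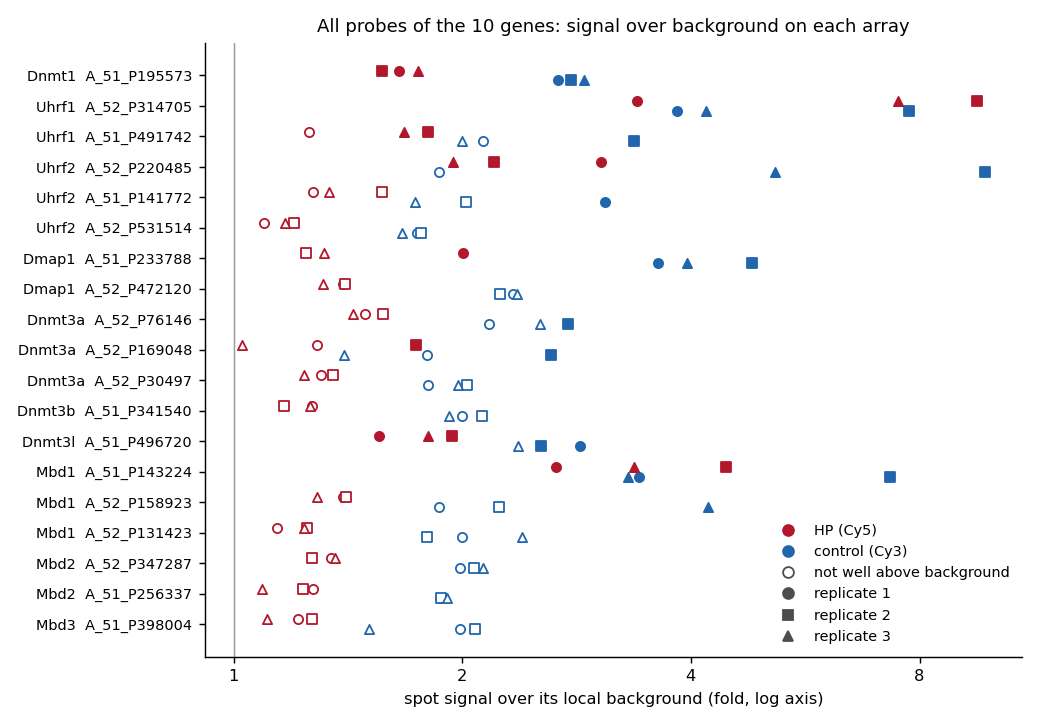
Mean signal of each spot divided by its local background (fold, log axis) for all 19 probes of the 10 genes, with HP pools in red, control pools in blue, 1 marker shape per replicate and open markers where the spot was not well above background. The bright Uhrf1 probe, 1 Mbd1 probe and the Dnmt1 probe are filled in all 6 readings, while Dnmt3b, Mbd2 and Mbd3 are open in every reading.

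The other 4 genes could not be tested. Dnmt3b, the de novo enzyme of centromeric repeats and of the early postimplantation embryo, had scanned spot signals of 45.7, 46.6 and 44.1 in HP and 49.0, 55.2 and 51.8 in control, and none was well above background. Mbd3, a subunit of the NuRD deacetylase complex that binds methylated DNA poorly, gave 43.8, 43.8 and 46.5 in HP and 47.7, 49.9 and 55.8 in control, again with none well above background. Neither of the probes of Mbd2, the methyl-CpG reader of NuRD, was well above background in any of 12 readings. For these 3 genes no level and no ratio was read as a measurement.

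Dnmt3a, the de novo enzyme of the growing oocyte, was seen in replicate 2 only. Its probe A_52_P169048 was well above background there in both channels, with scanned signals of 66.1 in HP and 72.0 in control and a ratio of 0.10. A_52_P76146, which spans 782 bases of chromosome 12 and is split by an intron, was well above background in the control pool of replicate 2 alone, at 71.6 against 56.6 in HP. The third Dnmt3a probe was not detected on any array. Of all 19 member probes 8 were never well above background, beside 68.1% of the probes of the array. The 36 ratios of the 12 untested member probes, which the intensity offset draws towards 0 at such signals, ran from −0.54 to 0.18.

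Dnmt1, the maintenance methyltransferase, had ratios near 0 on each array. Its pool levels were 6.52, 6.45 and 6.58 in HP and 6.51, 6.48 and 6.54 in control. The groups overlapped, and the 6 pools lay within a narrow band. The ratios on replicates 1, 2 and 3 were 0.0093, −0.032 and 0.038, with a mean of 0.0052 ± 0.1027 (moderated SE, n = 3) and a limma adjusted p of 0.979. The probe was well above background in all 6 readings but dim, at scanned signals of 56.9 to 59.5 in HP and 64.1 to 75.3 in control, so a difference could be compressed here. With median centring Dnmt1 was at −0.11. Which Dnmt1 transcript forms it reads was not determined.

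Uhrf1, the reader of hemimethylated CpG, was higher in HP by its bright probe. Scanned signals of A_52_P314705 were 116, 352 and 269.7 in HP and 95.9, 193.8 and 96.3 in control. After normalisation its levels were 7.43, 8.71 and 8.55 in HP and 6.82, 7.11 and 6.81 in control. Every HP pool lay above every control pool, as for 13.3% of all tested genes, and replicate 1 was the lowest of the HP pools. The ratios were 0.61, 1.60 and 1.74, which put Uhrf1 above 92.0%, 99.1% and 99.6% of tested genes on the respective arrays. The mean of 1.32 ± 0.27 (2.49-fold) was reached or passed by 0.317% of tested genes, 23 of 7253 with Uhrf1 itself. Its limma adjusted p was 0.178, so it did not pass adjustment over all genes. No member had a ratio over 1 on all 3 arrays, as 0.152% of genes did, since Uhrf1 was at 0.61 on replicate 1.

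The other Uhrf1 probe did not show this. Its levels were 6.26, 6.63 and 6.43 in HP and 6.37, 6.58 and 6.26 in control, and the groups overlapped. The ratios of −0.11, 0.045 and 0.17 had a mean of 0.033 ± 0.116 (limma adjusted p over probes 0.892). It was well above background in 2 HP readings and 1 control reading, whereas A_52_P314705 was so in all 6. The scanned signals of the dim probe were 45.3, 72.1 and 62.0 in HP and 55.4, 82.4 and 52.0 in control. A difference could thus be compressed here. The difference in ratio between both probes was 0.72, 1.56 and 1.57 on the arrays. With the mean of both probes in place of the bright one, the Uhrf1 ratio was 0.67 (limma adjusted p = 0.209). With the log ratios of the scanner software the dim probe gave −1.67, 0.40 and 2.91, against 1.33, 2.28 and 3.28 for the bright probe.

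**Figure D2:**
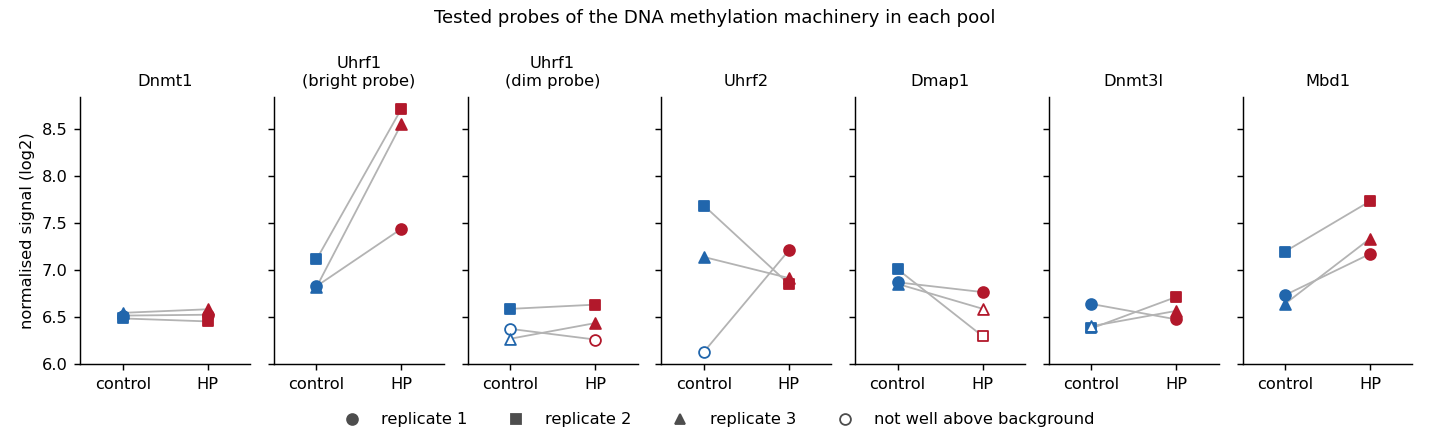
Normalised log2 signal of the 7 tested probes in each control pool (blue) and HP pool (red), with lines joining the pools of 1 array and open markers for readings not well above background; heights are comparable within a panel only. In the panel of the bright Uhrf1 probe the HP pools sit at 7.43 to 8.71 and the control pools at 6.81 to 7.11, and in the Uhrf2 panel the lines cross.

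Uhrf2 split the arrays. Its only tested probe had levels of 7.20, 6.85 and 6.91 in HP and 6.13, 7.68 and 7.13 in control. The HP pools were close to each other (SD 0.19) and the control pools were not (SD 0.79), with the control pool of replicate 1 not well above background. The ratios were therefore 1.08, −0.83 and −0.22, and the mean of 0.0071 ± 0.4095 (limma adjusted p = 0.992) describes none of the arrays. Without replicate 1 the mean was −0.53, and without replicate 2 it was 0.43. A second Uhrf2 probe, A_51_P141772, was well above background in the control pool of replicate 1 alone, at a scanned signal of 86.5 against 43.2 in the HP pool of that array. So the pool in which the tested probe was lowest was the pool in which this probe was highest. The third Uhrf2 probe was never well above background.

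Dmap1 had the lowest mean of the tested members. Its levels were 6.76, 6.29 and 6.58 in HP and 6.86, 7.003 and 6.85 in control. All HP pools lay below all control pools, as for 13.2% of tested genes. The probe met the detection rule through the control channel alone, so its direction is not a separate result. The HP spot was well above background on replicate 1 only, at a scanned signal of 66.2, and stood at 48.5 and 48.7 on replicates 2 and 3, where the ratio is limited by the background. The ratios of −0.10, −0.71 and −0.26 had a mean of −0.36 ± 0.16 (limma adjusted p = 0.323). With the scanner's log ratios the mean was −2.67, with a limma adjusted p of 0.272. The other Dmap1 probe, on another part of the transcript, had no reading well above background.

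Dnmt3l, the cofactor of de novo methylation, had levels of 6.47, 6.71 and 6.56 in HP and 6.63, 6.37 and 6.40 in control. The groups overlapped, with replicate 1 on the other side from replicates 2 and 3. Its ratios were −0.16, 0.33 and 0.16, with a mean of 0.11 ± 0.14 (limma adjusted p = 0.682). The probe was dim, at scanned signals of 55.1, 79.4 and 67.7 in HP and 74.2, 68.6 and 64.0 in control. The control spot of replicate 3 was not well above background, and a difference could be compressed here. With the scanner's log ratios the mean was 0.83 (limma adjusted p = 0.428).

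Mbd1, a reader that represses transcription from methylated promoters, had the steadiest ratios of the members whose sign was the same on all arrays. Its tested probe, A_51_P143224 on chromosome 18, had levels of 7.17, 7.73 and 7.33 in HP and 6.73, 7.19 and 6.64 in control. The groups overlapped, since the control pool of replicate 2 lay above the HP pool of replicate 1. After loess normalisation HP was higher within every array. The ratios were 0.44, 0.54 and 0.69, above 86.5%, 83.2% and 93.9% of tested genes. The mean was 0.56 ± 0.11 (1.47-fold) with a limma adjusted p of 0.178, which did not pass. With median centring in place of loess it was 0.096 (limma adjusted p = 0.707), against −0.39 for the median of all tested genes under that scaling. The other Mbd1 probes were not tested. Of these, A_52_P158923 was well above background in the control pool of replicate 3 alone, at a scanned signal of 109.5 against 48.9 in HP, the opposite direction to the tested probe on that array.

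**Figure D3:**
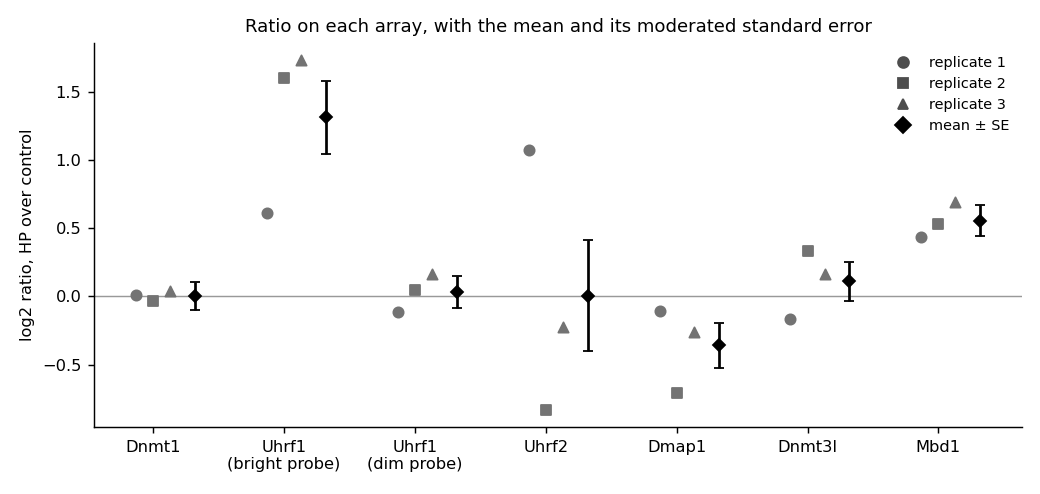
Log2 ratio of HP over control on each of the 3 arrays (grey) for the 7 tested probes, with the mean and its moderated standard error over n = 3 arrays (black). The bright Uhrf1 probe (0.61 to 1.74) and Mbd1 (0.44 to 0.69) are above 0 on every array, Dmap1 (−0.71 to −0.10) is below 0 on every array, and Uhrf2 ranges from −0.83 to 1.08.

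Over the 6 tested genes, 0 passed a limma adjusted p of 0.05, as 0 of 7253 genes did, where the lowest adjusted p was 0.178. At an unadjusted p under 0.05 there were 2 members, Uhrf1 and Mbd1, beside 18.5% of all tested genes. Both were higher in HP, as were 7.35% of tested genes at that threshold. Counted by probe, 2 of the 7 tested member probes were past it and higher in HP, beside 7.07% of tested probes. The ratio was above 0 on all 3 arrays for 2 members, beside 23.5% of genes. It was below 0 on all 3 for Dmap1, tested through the control channel alone, beside 25% of genes. The signs were mixed for the other 3.

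The maintenance genes had no shared sign across the arrays. The median ratio of the 4 maintenance genes was 0.31, −0.37 and −0.09 on the arrays (mean −0.05, SD 0.34), against medians of −0.02, −0.01 and 0.0061 for all tested genes. That of the de novo group was the value of Dnmt3l (mean 0.11, SD 0.25), and that of the readers the value of Mbd1 (mean 0.56, SD 0.13). The maintenance median minus the de novo value was 0.47, −0.71 and −0.26, so its sign differed between arrays. The maintenance median minus the reader value was −0.13, −0.91 and −0.79, below 0 on each, but with a single reader gene and no test. Within the maintenance group Uhrf1 stood above Dnmt1 by 0.60, 1.63 and 1.70, by the bright probe. The dim Uhrf1 probe, at −0.11, 0.045 and 0.17, did not show this distance from Dnmt1, but at its low signals a difference could be compressed.

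The wider pathway was read from 5 further lists, chosen, like the members, with earlier results of these data known. Of the genes that oxidise or repair methylcytosine 5 of 10 were tested, all with means above 0, or 4 of them with median centring, under which 905 of all 7253 tested genes were above 0 (median 0.36 against −0.012 for all tested genes), and 1 had an unadjusted p under 0.05. That was Gadd45a, a stress-induced protein linked to DNA repair, with ratios of 0.30, 0.47 and 0.22 (limma adjusted p = 0.263), but −0.024 on average with median centring. Its relative Gadd45b was at 0.99 ± 0.36, while a second tested probe gave −0.11. Tet3, the dioxygenase that oxidises methylcytosine in the zygote, was well above background in 2 HP pools and in no control pool. Like some others of this list it met the detection rule through the HP channel alone, so their shared direction is not a separate result. The mean ratio of Tet3 was 0.37 (1.29-fold higher in HP, limma adjusted p = 0.294). The undetected control signal was above the lowest detected signal of each array and was used as it stands. Tet1 and Tdg had no reading well above background.

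Of 6 other methyl-CpG readers 2 were tested, Zbtb33 and Mbd6. Zbtb33, the zinc finger protein also known as Kaiso, was well above background in all 3 control pools and in no HP pool. Its mean ratio was −0.41 (1.33-fold lower in HP), with the undetected HP signal used as it stands. Its ratios were −0.31, −0.58 and −0.35 and its unadjusted p was under 0.05 (limma adjusted p = 0.221). Mbd6 was at −0.18 ± 0.11 (limma adjusted p = 0.394) and was well above background in 3 control pools and 1 HP pool. Both genes met the detection rule through the control channel alone, so their shared direction is not a separate result.

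The NuRD complex joins a chromatin remodeller to histone deacetylases and is the partner of Mbd2 and Mbd3. Of its 11 other genes 8 were tested, 4 above and 4 below 0 (1 above with median centring, beside those 905 of 7253 genes), with a median of −0.065. Rbbp7, a histone-binding subunit, had an unadjusted p under 0.05, at −0.32, −0.27 and −0.40 on the arrays (limma adjusted p = 0.242). Rbbp4, its close relative, was at −0.37 ± 0.22 and the remodeller Chd4 at −0.19 ± 0.12. Mta2 was at 0.69 ± 0.28 (0.032 with median centring) and the deacetylase Hdac1 at 0.039 ± 0.230 (−0.85 with median centring).

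Of the partners and protectors of methylation 9 of 14 genes on the array were tested, with a median of 0.22 (−0.67 with median centring), 6 above and 3 below 0 (3 above with median centring). Kdm1b, a histone demethylase that oocytes need to set some maternal imprints, had the highest mean of all genes in these lists. Its signal was well above background in all 6 pools. Its ratios were 1.51, 2.50 and 1.46, with a mean of 1.82 ± 0.26 and an unadjusted p under 0.05 (limma adjusted p = 0.178). With median centring it was 0.88. Ehmt2, a histone methyltransferase of repressive chromatin, was at −0.15, −0.63 and −0.44, also with an unadjusted p under 0.05 (limma adjusted p = 0.259). Trdmt1, a relative of the Dnmt enzymes that methylates transfer RNA, was at 1.12, −0.033 and 1.93. Dppa3, which shields the maternal genome from oxidation, was at 0.26 ± 0.11 (−0.93 with median centring).

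Of 13 genes that supply methyl groups 10 were tested and none had a limma p under 0.05. Their median was −0.090, with 3 above and 7 below 0 (none above with median centring, where most of all tested genes were below 0). The thymidylate synthase Tyms was at −0.28 ± 0.21. Mtrr, which keeps methionine synthase active, was not well above background in any HP pool and was tested through the control channel alone. Its ratios were −0.95, −0.18 and 0.033, with a mean of −0.37 ± 0.23 (limma adjusted p = 0.425) that lay mostly in replicate 1. Ahcyl1, a relative of the hydrolase of S-adenosylhomocysteine, was at −0.10 ± 0.11, and Mat2a, which makes the methyl donor S-adenosylmethionine, at −0.070 ± 0.130.

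**Figure D4:**
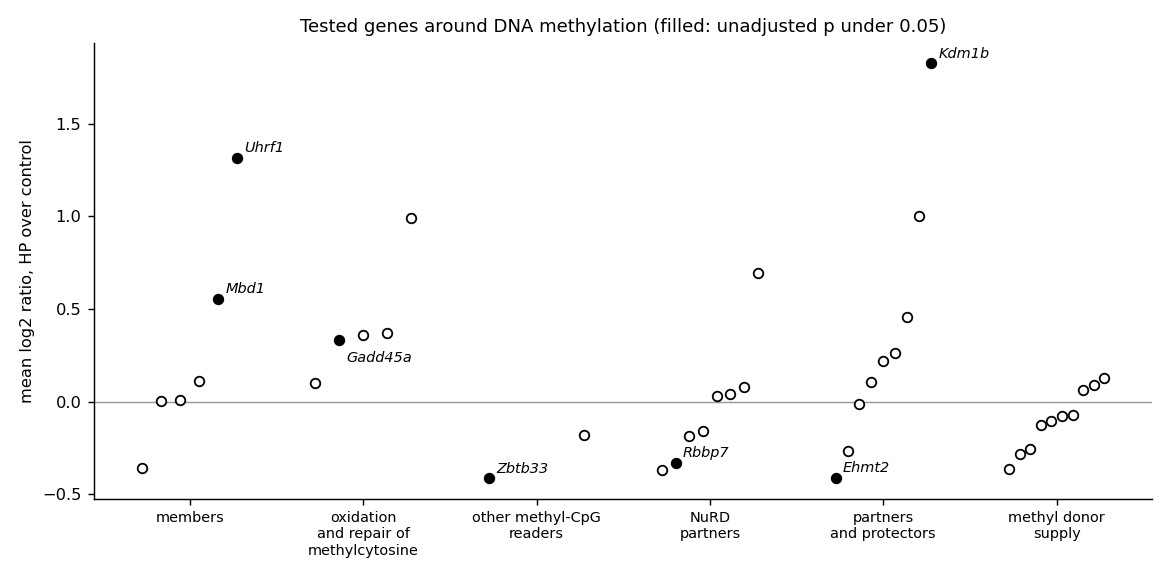
Mean log2 ratio of HP over control over 3 arrays for the 6 tested members and the tested genes of the 5 pathway lists, 1 circle per gene, filled and named where the unadjusted limma p is under 0.05. Kdm1b (1.82) and Uhrf1 (1.32) are the highest of the named genes, and the methyl donor genes lie between −0.37 and 0.13.

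Uhrf1 and Mbd1 had mean ratios above 0, and above the median of all tested genes, under each of 16 other processing settings. Of these settings 2 hold the same values (the authors' series table and the scanner's log ratios). The Uhrf1 value ran from 0.67 to 2.30 and the Mbd1 value from 0.096 to 1.48, and neither passed adjustment under any of them (lowest limma adjusted p 0.0849 and 0.127). Replicates 2 and 3 averaged and counted as 1 gave 1.14 for Uhrf1, no longer past an unadjusted p of 0.05, and 0.53 for Mbd1, still past it (limma adjusted p = 0.415 for each). Without replicate 1, 2 or 3 Uhrf1 was at 1.67, 1.17 and 1.11.

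**Figure D5:**
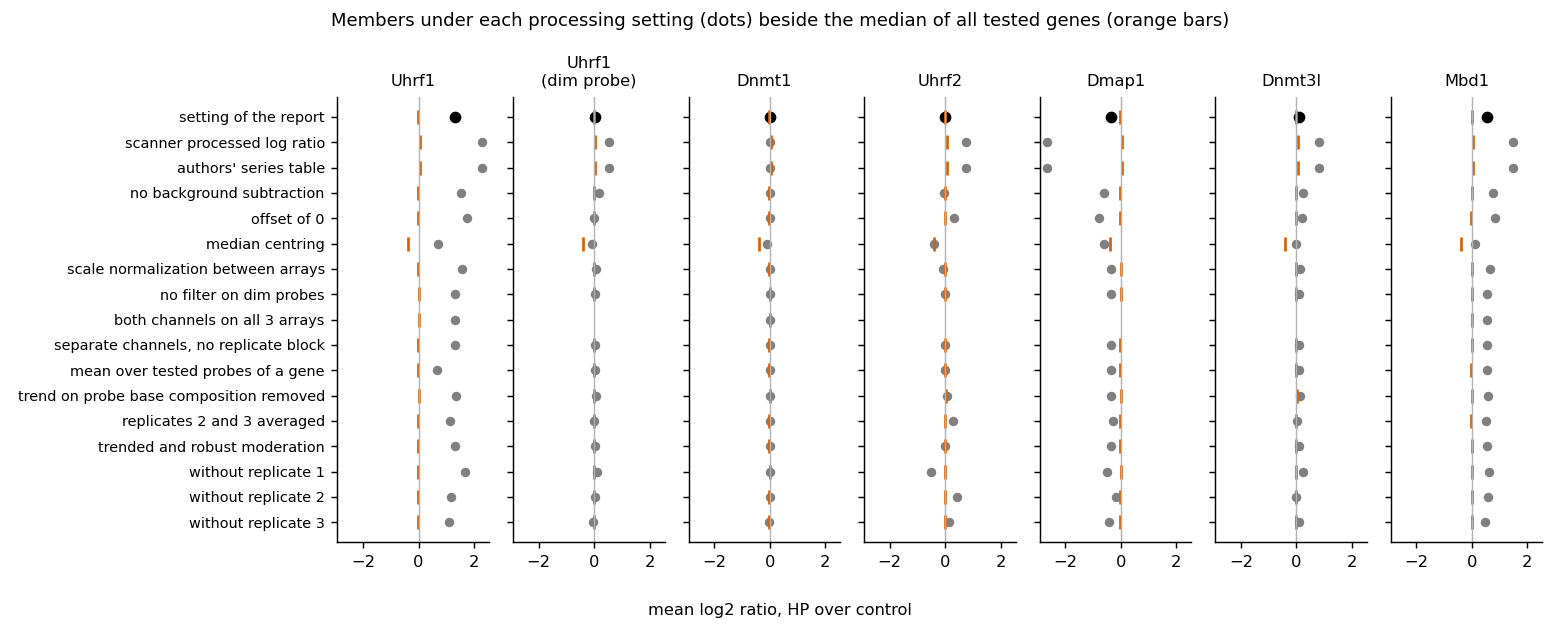
Mean log2 ratio of HP over control (dots) for the tested members under the setting of the report (black) and 16 other settings (grey), beside the median of all tested genes in the same setting (orange bars); a missing dot marks a member that the setting left untested. Uhrf1 stays right of the orange bar in every row, from 0.67 to 2.30, while Dmap1 reaches −2.67 with the log ratios of the scanner software.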

How the data were processed

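Tables of 3 two-colour arrays were analysed (45018 spots each, 1 slide). Per the labels' protocols, 240 pg of total RNA per pool was amplified in successive rounds before labelling. Per the submitters' processing notes and the file headers, Agilent Feature Extraction 9.5.1.1 quantified the scans. The deposited mean and local background signals are intensity values with no subtraction. Its processed signals, also deposited as intensity, are background-subtracted and dye-normalised. Its deposited log ratio is on a log10 scale, Cy5 over Cy3, and the authors' series table repeats it within 5e-10.

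Mean and local background signals were corrected with limma 3.58.1 (R 4.3.3) by normexp with an offset of 50, and loess-normalised within arrays with control and outlier spots at weight 0. Outlier spots were left out (208, 172 and 325), and spots of a probe were averaged. The filter left 8589 probes and 7253 genes, each gene by its tested probe with the highest mean intensity. An intercept was fitted over all of them with lmFit and eBayes, with Benjamini-Hochberg adjustment, and the steps were tested on simulated data. Pool levels used Aquantile scaling between arrays. For Tet3 and Zbtb33 an undetected channel was set to the lowest detected signal of its array, or to the probe's own signal where higher. Symbols of other genes were updated through the RefSeq table by accession (22951 probes), symbol (6659) or synonym (3109), and 8455 were kept.

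Members and lists were chosen with earlier results of these data known. All members are named. From each pathway list the named genes are the 4 with the smallest p and the brightest one, and undetected genes named beside them were chosen after their values were seen. Some genes that this rule names are not reported here. Tip60, an older symbol of Kat5, was counted once. Positions come from the array design, with no genome used. No sequence is shown for probes on chromosome 18.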

Additional observations from a re-analysis of the deposited data

How the results depend on the processing

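Each array pairs its pools, so the ratio holds the pairing. With separate channels and no replicate block the limma adjusted p was 0.137 for Uhrf1, 0.244 for Mbd1 and 0.268 for Dmap1, and no call changed, though Dmap1 joined Uhrf1 and Mbd1 at an unadjusted p under 0.05. The count of members past an adjusted p of 0.05 was 0 under all 16 settings, where median centring passed 1047 genes in all. Members at an unadjusted p under 0.05 numbered 0 with scale normalization between arrays, beside 1058 of 7253 genes. They numbered 1 with replicates 2 and 3 averaged, beside 861 genes, and 1 to 2 without a replicate, beside 711 to 1790. There were 3 with the scanner's log ratios or the authors' series table, beside 1292 genes. There were also 3 with no background subtraction, beside 1477 genes, and 3 with separate channels, beside 1354. The reader value (Mbd1) moved to 1.48 with the scanner's log ratios or the authors' series table, 0.76 with no background subtraction, 0.85 with an offset of 0, 0.096 with median centring, and 0.010 with no filter, which adds Mbd2 and Mbd3. The de novo value moved to 0.83 with the scanner's log ratios or the series table. The maintenance median moved to 0.66 with detection demanded in both channels of every array, which keeps Dnmt1 and Uhrf1. Ratios near 0 turned sign. Uhrf2 was at −0.049 with no background subtraction, −0.40 with median centring, −0.079 with scale normalization and −0.53 to 0.43 without a replicate. Dnmt1 was at −0.11 with median centring, −0.0018 with the trend on base composition removed and −0.011 to 0.024 without a replicate. Dnmt3l was at −0.018 with median centring and −0.00045 to 0.25 without a replicate. The dim Uhrf1 probe was at −0.0088 with an offset of 0, −0.067 with median centring, −0.0038 with replicates 2 and 3 averaged and −0.034 to 0.11 without a replicate. Where no clause names the cause, the cause was not tested. Of 203 recomputed values 178 kept their direction and side of the threshold or moved by less than the spread between arrays. Signal over background is the limit for most member probes, since 12 of 19 were not tested. Over the whole array 20.9% of probes were tested.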
